A study of Homo sapiens with 4 samples.

Results

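The genes described here are 49 human genes of DNA replication, given as a list of names. No measured value enters that rule, although the list was drawn up with earlier results of these data known. A row in the table of unique molecular identifiers (UMIs, each marking 1 captured transcript molecule) was found for 48 of the 49 among 19238 genes, and UHRF1, a reader of methylated DNA at replication forks, is not analysed here. Of the 48, 41 reached at least 10 CPM (counts per 1000000 UMIs) in at least 1 set of cells and are called the measured members. MCM2, GINS3, POLA1, PRIM2, POLD1, POLE and CCNE2 stayed below that level in every set.

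Single-cell 3' libraries were made from WM239A, a human melanoma cell line labelled as poorly metastatic, and from 3 of its subclones. The subclone 113/6-4L is labelled with a high potential for lung metastasis, and 131/4-5B1 and 131/4-5B2 with a high potential for brain metastasis. No treatment, time or further genotype is given, and each line is 1 library, so there is no replicate. The table holds 8173 cells whose barcodes carry a suffix from 1 to 4, which splits them into sets of 2121, 1779, 2140 and 2133 cells. Nothing ties a suffix to a line, so the sets are described as unlabelled samples and no line is compared with another. Their totals lay between 71182648 and 71915542 UMIs, and any pair of sets shared 5 to 9 barcode sequences. Of 8 melanocytic markers 7 were measured, all but TYRP1, with summed levels of 6946 to 9873 CPM. Endothelial markers summed to 1.33 to 2.98 CPM, fibroblast markers to 0.308 to 13.8 CPM (LUM the measured member) and immune markers to 30.1 to 38.7 CPM (CD68), while KRT8 and KRT18 carried an epithelial sum of 117 to 178 CPM. All intervals below are 95% intervals of counting error alone and hold no spread between cultures. Those on UMI counts also hold no spread between cells.

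Before a cell copies its DNA, CDC6 and CDT1 load the MCM2 to MCM7 helicase onto origins, which is called licensing, and geminin (GMNN) later blocks CDT1 so that no origin is licensed again. CDC45 and the GINS complex then turn the helicase on with the help of MCM10. Polymerase alpha and its primase start each strand, RFC loads the PCNA clamp, polymerases delta and epsilon extend, and FEN1 and LIG1 finish the lagging strand. Ribonucleotide reductase, thymidylate synthase and thymidine kinase supply nucleotides, and CHAF1A and CHAF1B put histones on the new DNA. Many of these genes are transcribed under E2F factors as cells pass from G1 into S phase, when replication-dependent histone messages also accumulate.

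The promoters of these genes are shown because the members moved together between cells, as described below. RefSeq promoter windows (GRCh38.p14, 250 bases before to 50 after the start) were matched for 42 of the 49 members. In the lines below, capitals mark E2F letters (TTTGGCGC, TTTCCCGC, TTTCGCGC or TTTGCCGC), CCAAT and TTTGAA (the core of the cell cycle homology region, CHR), on either strand, and neighbouring matches may overlap.
E2F1 (chr20:33686386-33686505, minus strand, bases 120 to 1 before the start): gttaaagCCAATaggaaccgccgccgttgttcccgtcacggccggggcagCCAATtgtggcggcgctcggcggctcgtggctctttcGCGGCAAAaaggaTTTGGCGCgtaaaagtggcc
MCM6 (chr2:135876494-135876603, minus strand, bases 160 to 51 before the start): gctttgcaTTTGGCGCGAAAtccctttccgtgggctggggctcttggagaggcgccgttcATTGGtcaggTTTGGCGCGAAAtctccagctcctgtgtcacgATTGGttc
PCNA (chr20:5126623-5126712, minus strand, bases 90 to 1 before the start): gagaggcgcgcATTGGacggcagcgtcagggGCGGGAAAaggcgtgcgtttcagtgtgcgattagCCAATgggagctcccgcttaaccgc
CDT1 (chr16:88803729-88803788, plus strand, bases 60 to 1 before the start): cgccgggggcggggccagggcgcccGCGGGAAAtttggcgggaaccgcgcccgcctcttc
GINS2 (chr16:85688955-85689014, minus strand, bases 60 to 1 before the start): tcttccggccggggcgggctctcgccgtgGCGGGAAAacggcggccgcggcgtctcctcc
TYMS (chr18:657593-657652, plus strand, bases 60 to 1 before the start): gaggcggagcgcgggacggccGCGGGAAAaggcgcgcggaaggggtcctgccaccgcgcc
RRM2 (chr2:10122609-10122688, plus strand, bases 130 to 51 before the start): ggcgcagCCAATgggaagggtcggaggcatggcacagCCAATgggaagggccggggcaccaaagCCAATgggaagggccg
The E2F letters stood in 20 of the 42 member windows (47.6%) and in 3.31% of the 35116 promoters of the same length. CCAAT stood in 23 of 42 (54.8%) against 34.6%, and TTTGAA in 1 of 42, that of RRM1 (2.38%), against 15.2%. The promoters compared were not reduced to 1 per gene, limited to measured genes or matched for base composition. The window of RRM2 held 3 copies of CCAAT and no E2F letters, while that of MCM6 held 4 E2F matches that overlap in pairs. These matches are letters in a window and were not tied to any level: the measured members with E2F letters (15) had a median between-cell ratio, defined below, of 4.21 and those without (20) of 4.08.

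Summed over the 48 genes, replication transcripts made up nearly the same share of the RNA in every set. The sum was 2802 CPM (2790 to 2814) in set 1, 2695 (2683 to 2707) in set 2, 2628 (2616 to 2640) in set 3 and 2849 (2836 to 2861) in set 4. Set 4 was the highest and set 3 the lowest. The intervals did not overlap, but they hold neither the spread between cells nor that between cultures, so they do not settle the order. To give each gene the same weight, log2(CPM + 1) was taken minus the gene's median over sets. The median of this value over the 41 measured members, called the module level, was 0.00, -0.08, -0.01 and 0.07 in sets 1 to 4, with standard deviations over members of 0.20, 0.10, 0.11 and 0.09. The medians over all 7416 measured genes were 0.04, -0.01, -0.01 and 0.00, with standard deviations of 0.43, 0.22, 0.18 and 0.14. Set 4 held the highest value for 23 of the 41 members (56.1%, against 17.7% of all genes) and the lowest value for 0 of 41 (12.0% of all genes). In set 1 the members divided, with 11 at their highest (26.8%, against 44.9% of all genes) and 15 at their lowest (36.6%, against 27.9%). Set 4 stood 1.1-fold or more above every other set for 6 of 41 members (1.86% of all genes) and below for 0 (1.17%). Set 1 stood above every other set by that much for 6 of 41 (27.4%) and below for 8 (15.4%), set 2 above for 0 (6.98%) and below for 8 (10%), and set 3 above for 1 (3.1%) and below for 2 (5.16%). The members spanned little between sets. Only MCM10, LIG1 and CHAF1A differed 1.5-fold or more between their highest and lowest set on the log2(CPM + 1) scale, 3 of 41, where 17.2% of all genes did, and 0 of 41 differed 2-fold, where 5.84% of all genes did. With a pseudocount of 10 CPM in place of 1, which shrinks the differences of low genes, 0 of 41 reached 1.5-fold.

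**Figure D1:**
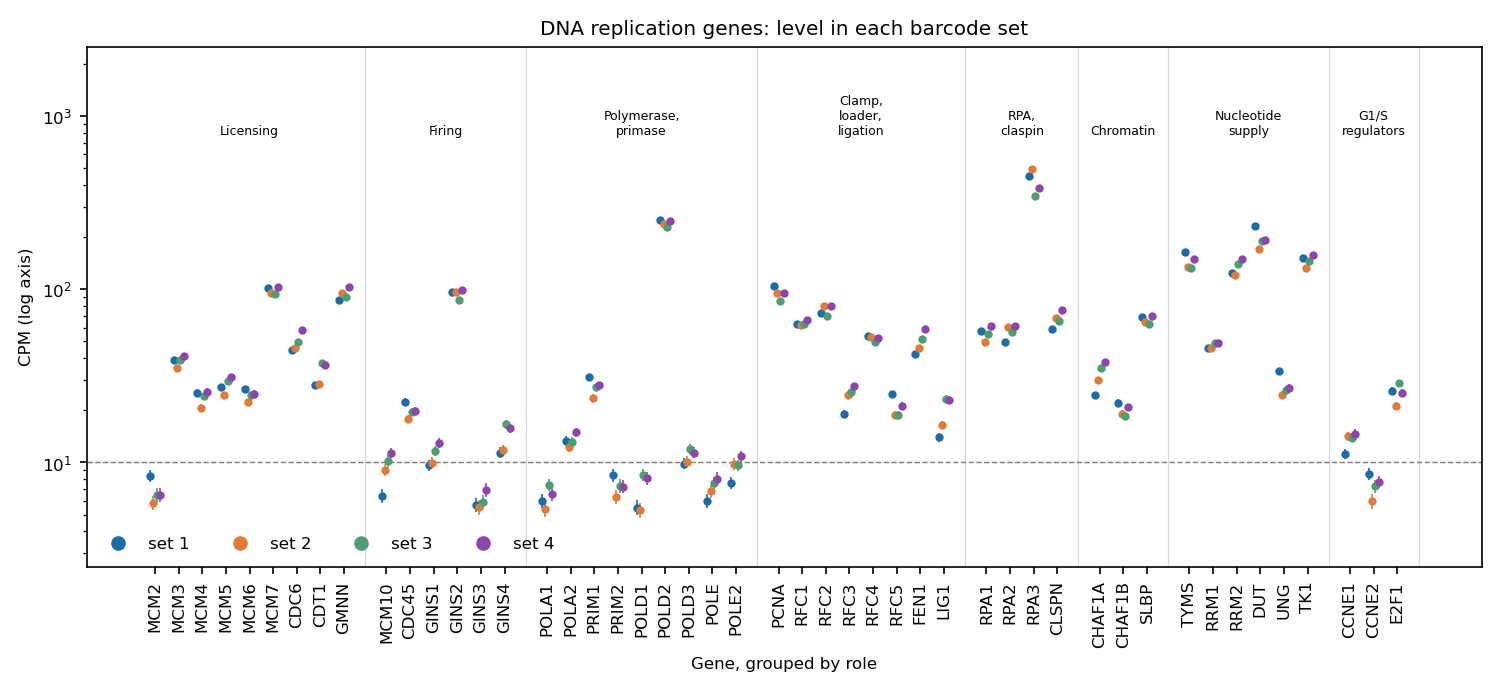
CPM (log axis) of each of the 48 genes in sets 1 to 4, grouped by role, with bars for the 95% counting interval and a dashed line at 10 CPM. For most genes the 4 points lie close together, and MCM10, LIG1 and CHAF1A show set 1 below the other sets.

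Among the licensing genes, MCM7, a helicase subunit, was the most highly counted of the MCM genes at 102, 94.8, 94.2 and 103 CPM in sets 1 to 4. MCM3 stood at 38.9, 35.2, 39.2 and 41.2 CPM, while MCM4, MCM5 and MCM6 lay between 20.6 and 31.3 CPM. MCM2 was the least counted of the ring at 8.32, 5.83, 6.49 and 6.48 CPM. The subunits of 1 ring were thus counted at unequal levels. What part capture of each transcript in a 3' assay had in this was not tested. The loader CDC6 was at 44.5, 45.8, 49.8 and 58.4 CPM, with set 4 above the others. CDT1, its partner, fell into pairs of sets: 28.1 and 28.2 CPM in sets 1 and 2, and 37.4 and 36.5 CPM in sets 3 and 4. Geminin (GMNN), the inhibitor of CDT1, did not share that pairing, with 86.3, 95.6, 90.2 and 104 CPM.

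Of the genes that fire origins, GINS2 was counted at 96.8, 95.9, 87.1 and 98.6 CPM and the other measured GINS subunits at a small part of that. GINS4 was at 11.4, 11.8, 16.6 and 15.8 CPM, which places sets 3 and 4 above sets 1 and 2, as for CDT1. GINS1 was at 9.63, 9.97, 11.6 and 12.9 CPM, and GINS3 stayed between 5.53 and 6.95 CPM. CDC45 was highest in set 1, with 22.3 CPM against 17.8, 19.5 and 19.8 CPM. MCM10 had the widest span of all members, with 6.40, 9.04, 10.2 and 11.4 CPM, so that set 4 was 1.78 times set 1 (1.58 to 1.997). Set 1 lay below the 3 other sets, and its 458 UMIs of MCM10 came from 17.0% of its cells (15.4 to 18.7%), against 25.9%, 25.3% and 27.8% of cells in sets 2 to 4. In cells brought to 10000 UMIs each, the shares were 6.19%, 9.17%, 9.12% and 9.80%. No cell type that lacks replication genes is present to give a background for such shares.

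The polymerase genes were dominated in counts by POLD2, an accessory subunit of polymerase delta, with 251, 239, 229 and 248 CPM. The catalytic subunit POLD1 had 5.47, 5.30, 8.47 and 8.09 CPM, sets 3 and 4 again above sets 1 and 2, but it is among the 7 genes under 10 CPM. POLE2, a subunit of polymerase epsilon, had 7.62, 9.82, 9.64 and 10.9 CPM, lowest in set 1. The primase subunit PRIM1 went the other way, with 31.1, 23.6, 27.3 and 28.0 CPM. POLA2 and POLD3 lay between 9.84 and 14.9 CPM in all sets.

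Around the sliding clamp, PCNA was at 104, 95.7, 85.1 and 95.7 CPM, highest in set 1. The loader subunits were not alike. RFC1, RFC2 and RFC4 spanned at most 1.14-fold each, whereas RFC3 was low in set 1 (19.1 CPM against 24.6, 25.6 and 27.6) and RFC5 was high there (24.8 CPM against 18.7, 18.7 and 21.3). FEN1, the flap endonuclease, was ordered from set 1 to set 4 with 42.2, 45.9, 51.9 and 58.6 CPM. LIG1, the ligase that seals Okazaki fragments, had 13.9, 16.4, 23.3 and 22.9 CPM, and set 3 was 1.67 times set 1 (1.55 to 1.81). Sets 3 and 4 lay close together for LIG1 and above both other sets, the order seen for CDT1 and GINS4. Cells with at least 1 LIG1 UMI were 35.2%, 45.9%, 50.5% and 50.4% of sets 1 to 4, and 11.9%, 13.9%, 19.0% and 20.2% at 10000 UMIs per cell.

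RPA coats single-stranded DNA. Its smallest subunit, RPA3, was the most highly counted member, with 453, 495, 346 and 384 CPM, and set 2 was 1.43 times set 3 (1.41 to 1.45). The other subunits did not share this order: RPA1 had 57.1, 49.7, 55.2 and 61.1 CPM and RPA2 had 49.7, 60.3, 56.8 and 61.0 CPM. Claspin (CLSPN), which links the fork to checkpoint signalling, had 58.6, 68.2, 65.4 and 76.2 CPM. Of the chromatin genes, CHAF1A was at 24.4, 30.0, 35.3 and 37.9 CPM, with set 4 at 1.55 times set 1 (1.46 to 1.65). Its partner CHAF1B was nearly level, with 22.0, 19.1, 18.6 and 20.8 CPM, as was the histone messenger binding protein SLBP with 69.1, 64.3, 63.0 and 69.6 CPM.

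In the nucleotide supply group, 4 of 6 genes were highest in set 1 or lay there above sets 2 and 3. DUT, which removes dUTP, had 232, 170, 189 and 193 CPM, and set 1 was 1.36 times set 2 (1.33 to 1.40). UNG, which excises uracil from DNA, had 33.8, 24.5, 26.3 and 27.0 CPM, so both uracil genes stood highest in set 1. Thymidylate synthase (TYMS) had 165, 135, 133 and 149 CPM and thymidine kinase (TK1) 152, 132, 146 and 158 CPM. The reductase subunit RRM2 was instead higher in sets 3 and 4, with 123, 121, 141 and 149 CPM, and RRM1 was level at 45.7 to 49.0 CPM. Of the G1/S regulators, cyclin E1 (CCNE1) had 11.2, 14.2, 13.9 and 14.6 CPM and E2F1 had 25.9, 21.3, 28.7 and 25.2 CPM. Cyclin E2 (CCNE2) had 8.59, 5.97, 7.31 and 7.73 CPM, highest in the set where cyclin E1 was lowest.

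Against the module level of the same set, 6 of 41 members lay 0.32 or more away on the log2 scale in some set, where 29.3% of all genes did. In set 1, MCM10 lay 0.52 below the module on the log2 scale, LIG1 0.45 below, CHAF1A 0.40 below and RFC3 0.38 below, and UNG lay 0.33 above. In set 2, RPA3 lay 0.33 above. All but RPA3 thus departed in set 1, the set whose genes as a whole varied most. POLE2 and CCNE1 lay just inside the limit, with departures of -0.315 and -0.303 in set 1, as did RFC5 and DUT with 0.298 and 0.281. With trimmed mean (TMM) scaling, which moved all genes of set 1 by -0.06, 7 members departed, and with a pseudocount of 10 CPM 0 did.

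**Figure D2:**
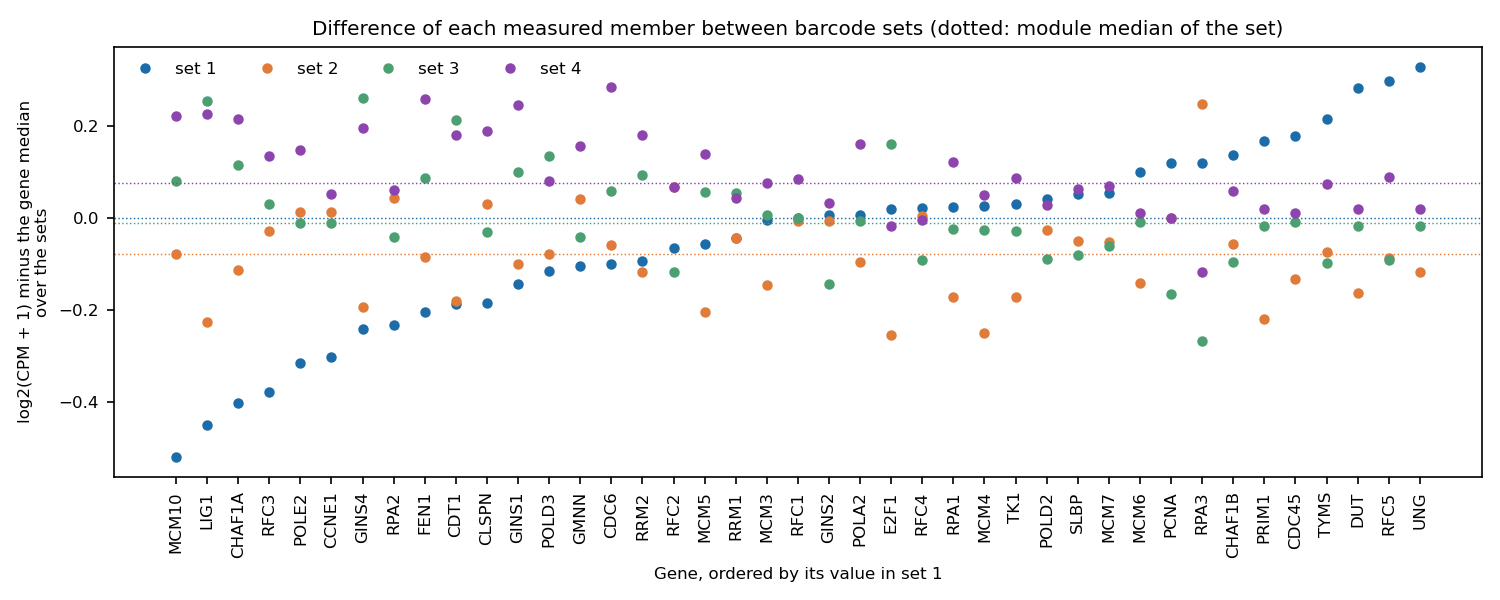
Relative level (log2) of each measured member in sets 1 to 4, every gene centred on its own middle value, with a dotted line at each set's module level. In set 1, MCM10, LIG1, CHAF1A and RFC3 lie furthest below that set's line and UNG furthest above it. In set 2, RPA3 lies furthest above the line.

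Between cells the members moved together. Each cell was thinned at random to 10000 UMIs, which left out 6, 1, 1 and 1 shallower cells, and the cells of a set were ranked by the summed UMIs of all members except the gene in question. The top 20% of cells were then compared with the bottom 20% (423, 355, 427 and 426 cells each). In every set 40 of 41 members were 1.5-fold or more higher in the top cells, all but POLD2, where 5.6% of all genes were. The median ratio over members was 4.08, against 1.04 over all genes, and 0 of 41 members had ratios of 0.8 or less in every set, where 2.56% of all genes were. CLSPN had ratios of 17.7, 9.04, 10.7 and 7.68 in sets 1 to 4, CDC6 had 10.7, 6.58, 9.62 and 7.08, RRM2 had 9.54, 6.85, 12.4 and 6.03, and CDC45 had 10.0, 5.48, 8.40 and 6.86. MCM10, which was nearly absent from the bottom cells, had 10.8, 18.0 and 7.21 in sets 2 to 4. In set 1 it had 67 UMIs in the top and 1 in the bottom cells, a ratio of 67 with an interval from 11.6 to 2685. The members named here came from licensing, firing, checkpoint and nucleotide supply, but these roles as a whole did not swing alike. The median ratio over the measured members of a role was 7.37 for firing and 4.06 for licensing. It was 3.34 for nucleotide supply and 2.49 for the RPA and claspin genes.

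At the other end stood members whose ratios were at most 2.41 in every set. POLD2 had ratios of 1.27, 1.43, 1.47 and 1.36, RFC1 of 1.91, 1.95, 1.88 and 1.71, RPA1 of 1.79, 1.89, 1.91 and 2.23, and RPA3 of 2.14, 1.71, 2.003 and 1.62. LIG1 had 2.03, 1.68, 1.53 and 2.41. A low ratio was not always a low correlation with the other members: RPA3 had correlations of 0.30 to 0.42, POLD2 of 0.13 to 0.19. CCNE2, although under 10 CPM, had ratios of 23.8 (8.98 to 89.0), 12.8 (4.69 to 48.6), 9.62 (4.65 to 23.1) and 9 (4.51 to 20.4), far above those of CCNE1 at 2.77, 2.18, 3.58 and 2.64. The top cells had somewhat deeper libraries as deposited, with medians of 34342 to 42219 UMIs against 29680 to 37824 in the bottom cells, and the part of depth beyond the thinning was not tested.

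**Figure D3:**
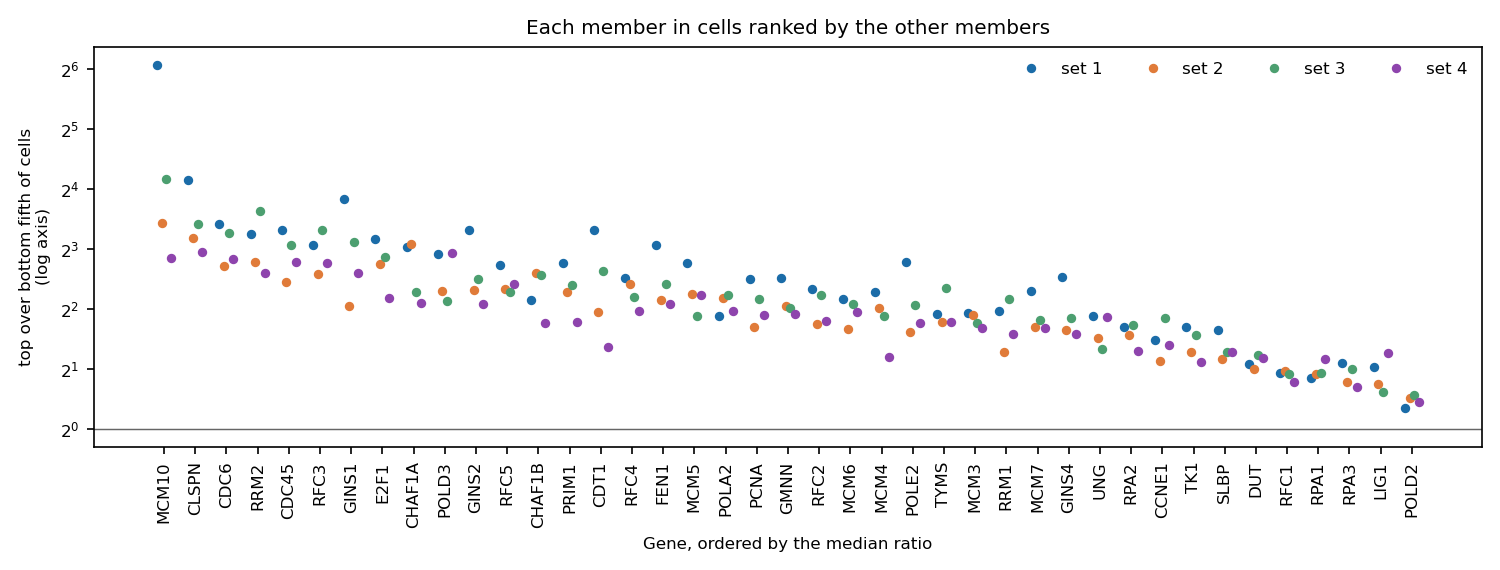
Ratio (log axis) of each measured member between the top and bottom 20% of cells ranked by the other members, in sets 1 to 4, ordered by the median. Every point lies above 1, and the order runs from MCM10 and CLSPN at the left to LIG1 and POLD2 at the right.

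Pearson correlations of log(1 + UMI) with the summed other members gave the same picture as a description across the thinned cells, which share a library and a fixed depth. The correlation was positive in every set for 41 of 41 members, against 36.6% of all genes, and the median over members was 0.24 against 0.01. Ranked by the lowest of the 4 sets, RRM2 was number 4 of 7416 genes (0.42 to 0.51), CLSPN number 8 (0.40 to 0.45), GINS2 number 9, GMNN number 12, TYMS number 14 and CDC6 number 15. Members made up 14 of the first 50 genes and 21 of the first 100. LIG1 (0.06 to 0.12) and CCNE1 (0.08 to 0.14) had the lowest values among the measured members. Such values are bounded by counts: MCM10, with its wide swing, reached only 0.18 to 0.21.

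Of the 820 pairs of measured members, 761 were positively correlated in every set and 0 were negative in every set, but single pairs were weak, with a median of 0.08. Only 9 pairs reached 0.2 in every set. The closest were nucleotide genes, TYMS with RRM2 (0.29 to 0.38) and RRM2 with TK1 (0.25 to 0.34), followed by CDC6 with CLSPN (0.24 to 0.30) and PCNA with CLSPN (0.23 to 0.32). CDT1 and its inhibitor GMNN had 0.09 to 0.18. Partners in 1 complex had values near these: the 10 pairs of measured MCM subunits had a median of 0.09, CHAF1A with CHAF1B 0.05 to 0.13, and RFC2 with RFC4 0.10 to 0.19. The reductase pair RRM1 and RRM2 was higher, with 0.19 to 0.26.

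The members were then placed against 2 lists that hold none of them: replication-dependent histone genes (33 of 34 with a row, whatever their level), which mark S phase, and mitotic genes (45). Along the rank of cells by replication transcripts, in 5 equal groups, histone UMIs per 10000 were higher at each step up. In set 1 they averaged 2.68, 3.75, 6.74, 12.99 and 21.3, and in set 4 3.10, 6.82, 10.8, 15.5 and 21.3. Mitotic UMIs did not follow that course. They averaged 8.23, 20.7, 33.6, 34.9 and 31.1 in set 1 and 18.1, 33.4, 37.6, 35.3 and 30.1 in set 4, highest in the middle groups and lower at the top. The cells poorest in replication transcripts were thus also poor in histone and mitotic transcripts. In set 4 those cells held 18.1 mitotic UMIs, against 8.23, 11.6 and 9.70 in sets 1 to 3.

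**Figure D4:**
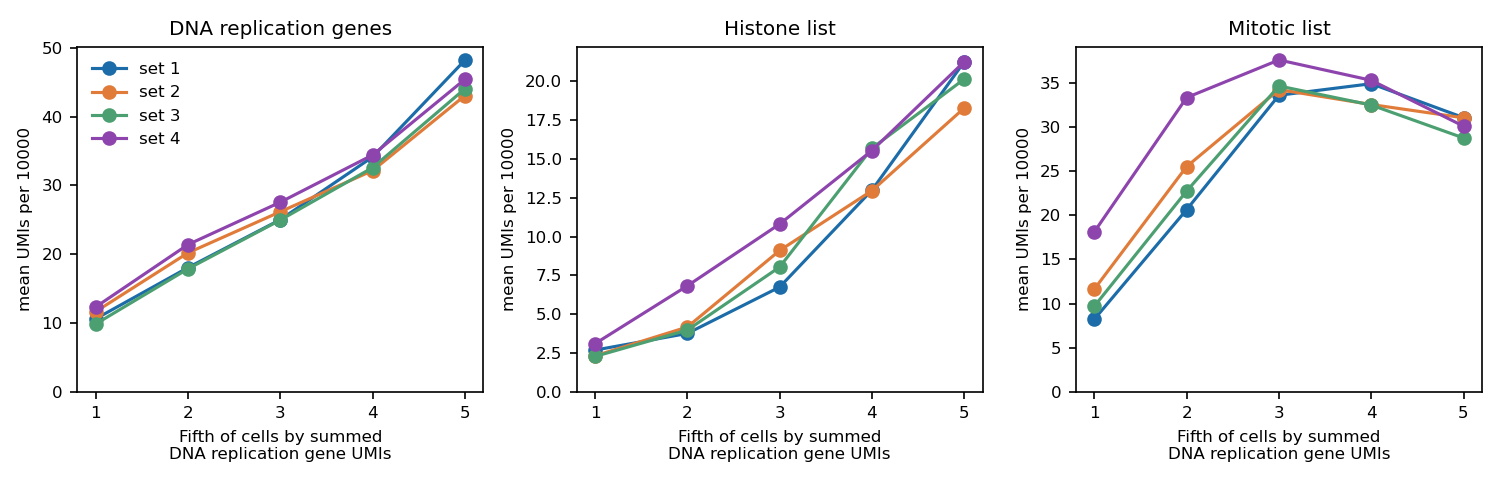
Mean UMIs per 10000 of the replication genes, the histone list and the mitotic list (y axes) in 5 equal groups of cells ranked by summed replication UMIs (x axis), for sets 1 to 4. Histone UMIs climb to 18.3 to 21.3 in the last group, and mitotic UMIs peak in group 3 or 4.

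Cells were divided where each list reached its 75th percentile over all cells, 12 histone UMIs and 39 mitotic UMIs. The classes are ranges of a score and not cell types, and 159 and 552 cells lay within 10% of these limits. Cells low in both lists made up 63.1% (61.0 to 65.1%), 60.8%, 62.3% and 53.3% (51.2 to 55.5%) of sets 1 to 4. Histone-high cells made up 15.2%, 13.5%, 14.3% and 15.9%, mitotic-high cells 13.8%, 16.1%, 12.2% and 18.2%, and cells high in both 7.99%, 9.56%, 11.2% and 12.6%. Set 4, with the highest module level, thus also had the fewest cells low in both lists. Replication UMIs per 10000 averaged 21.7 to 24.2 in cells low in both lists, 36.8 to 43.6 in histone-high cells and 24.9 to 28.1 in mitotic-high cells. Histone-high cells were deeper as deposited, with medians of 38228 to 48779 UMIs against 31634 to 39154 in cells low in both. Doublets were not called, and their part in the cells high in both lists was not tested.

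In histone-high cells 21 of 41 members were 1.5-fold or more above cells low in both lists in every set, where 2.58% of all genes were, and 0 of 41 had ratios of 0.8 or less in every set (1.42% of all genes). RRM2 stood out with ratios of 6.01, 4.01, 6.27 and 5.15, followed by CDC45 with 4.41, 3.003, 3.83 and 2.57. RFC5 had 2.59, 2.62, 2.80 and 2.30, and CLSPN 2.96, 2.44, 2.61 and 2.30. By role, 6 of 8 clamp and ligation genes, 4 of 5 firing genes and 4 of 6 nucleotide genes met the limit, but 2 of 8 licensing genes and 0 of 2 G1/S regulators. At a 2-fold limit 5 of 41 members were above it, and with classes cut at the 90th percentile 9 met 1.5-fold. POLD2 (1.16, 1.246, 1.253 and 1.241), SLBP (1.54, 1.21, 1.07 and 1.15) and CCNE1 (1.43, 0.773, 1.04 and 1.20) were the least different. UNG was 1.97 times as high in set 1 (1.66 to 2.33), but 1.18, 1.05 and 1.21 times in sets 2 to 4.

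In mitotic-high cells a few members were higher and a few lower, and most met neither limit. The median ratio to cells low in both lists was 1.08 over members, against 1.03 over all genes. Only 5 of 41, RRM2, RRM1, TK1, TYMS and CDC45, were 1.5-fold or more above cells low in both lists in every set, where 2.98% of all genes were. RRM2 had ratios of 3.53, 3.09, 3.09 and 2.91, TYMS of 1.997, 1.76, 2.11 and 1.74, RRM1 of 1.99, 1.81, 1.83 and 1.57, and CDC45 of 2.17, 2.18, 1.75 and 1.54. All but CDC45 belong to nucleotide supply. At a 2-fold limit, or with classes cut at the 90th percentile, 1 of 41 was above it. Another 6 of 41, MCM6, MCM10, UNG, CDC6, E2F1 and CCNE1, had ratios of 0.8 or less in every set, where 1.98% of all genes were. E2F1 had ratios of 0.220, 0.301, 0.296 and 0.280, CCNE1 of 0.411, 0.209, 0.265 and 0.261, UNG of 0.326, 0.410, 0.384 and 0.326, and MCM6 of 0.447, 0.661, 0.453 and 0.455. CCNE2 went the same way on few counts, with 5, 3, 6 and 4 UMIs in mitotic-high cells and ratios of 0.241 (0.0766 to 0.583), 0.179 (0.0360 to 0.549), 0.280 (0.100 to 0.628) and 0.118 (0.0316 to 0.313). The lower group holds both measured G1/S regulators, the licensing genes MCM6 and CDC6, the firing gene MCM10 and UNG of nucleotide supply.

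**Figure D5:**
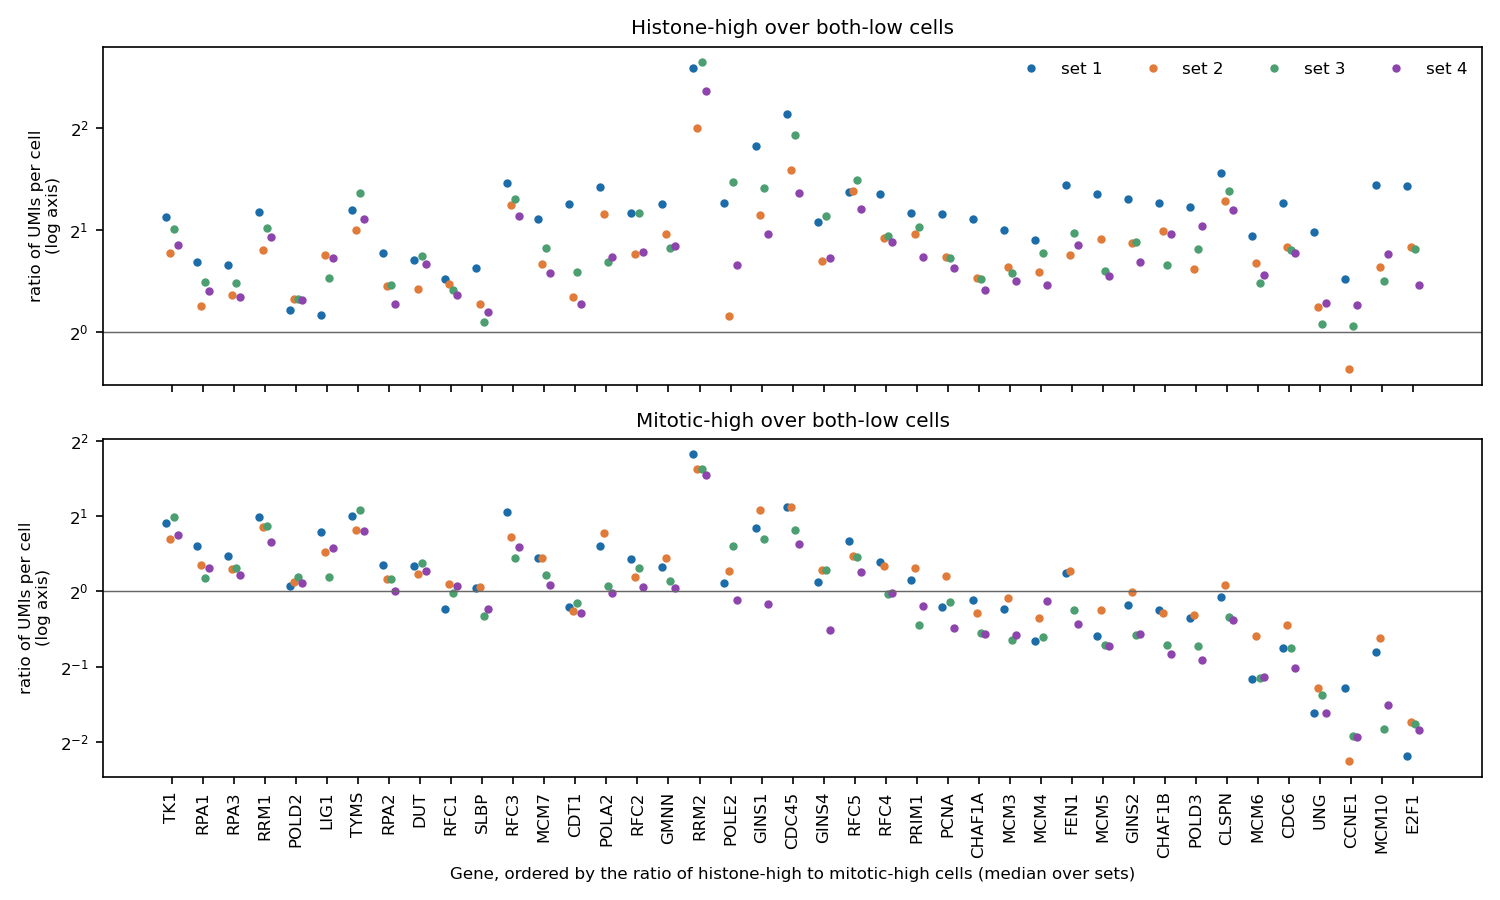
Ratio (log axis) of each measured member in histone-high (upper panel) and mitotic-high cells (lower panel) to cells low in both lists, in sets 1 to 4. Genes are ordered by the median ratio of histone-high to mitotic-high cells. RRM2 lies highest in both panels, E2F1, CCNE1 and UNG lie lowest in the lower panel, and POLD2 lies near 1 in both.

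Set directly against mitotic-high cells, histone-high cells held 1.5-fold or more of 15 of 41 members in every set, where 1.19% of all genes did, and the reverse held for 0 of 41 (1.43% of all genes). The 15 were CLSPN, MCM3, MCM5, MCM6, MCM10, CDC6, GINS2, POLD3, PRIM1, RFC5, CHAF1A, CHAF1B, UNG, CCNE1 and E2F1. Of the 5 members high in both classes, RRM2 was 1.70, 1.30, 2.03 and 1.77 times as high in histone-high as in mitotic-high cells. CDC45 had 2.03, 1.38, 2.18 and 1.66, TYMS 1.14, 1.14, 1.21 and 1.24, TK1 1.16, 1.05, 1.01 and 1.08, and RRM1 1.14, 0.966, 1.11 and 1.21. For RRM1 and TK1 these ratios lay within counting error of 1 in 3 of 4 sets.

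Co-variation was also present where both lists were low. Among those cells alone, 39 of 41 members met the 1.5-fold limit in every set, all but POLD2 and RRM1, where 5.37% of all genes did. CLSPN had ratios of 26.6, 10.1, 15.1 and 19.6 there, CDC6 of 11.1, 7.93, 17.1 and 13.6, and CHAF1A of 14.4, 14, 6.96 and 7.48. The members thus also differed together among cells under the limits of 12 histone and 39 mitotic UMIs. These cells still averaged 12.4 to 15.6 mitotic UMIs per set, and the part of cycling cells among them was not tested. CCNE2 had 33.5, 16, 9.83 and 15.7 there, from as few as 2 UMIs in the bottom cells of a set.

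The departures of set 1 differed between the classes. MCM10 had 5.30, 8.92, 11.0 and 12.6 CPM in sets 1 to 4 among cells low in both lists, but 13.1, 14.4, 14.8 and 16.5 CPM among histone-high cells, so its gap between sets 4 and 1 was 1.11 on the log2 scale in the first and 0.31 in the second, and 0.52 in mitotic-high cells. CHAF1A had a gap of 0.82 among cells low in both lists, 0.25 among histone-high cells and 0.79 among mitotic-high cells. The gap of LIG1 between sets 3 and 1 was 0.72 among cells low in both lists (11.7 and 19.9 CPM), 0.75 among histone-high cells (16.5 and 28.6 CPM) and 0.47 among mitotic-high cells (16.4 and 23.2 CPM). UNG had 57.6, 35.5, 33.6 and 38.8 CPM in histone-high cells, 34.5, 27.1, 31.1 and 32.7 CPM in cells low in both lists, and 9.80, 10.9, 8.75 and 9.45 CPM in mitotic-high cells, where set 1 was not above set 2. RPA3 was higher in sets 1 and 2 than in sets 3 and 4 in every class, for example 379, 443, 300 and 340 CPM in cells low in both lists. DUT was highest in set 1 in every class, with 195, 147, 154 and 159 CPM in cells low in both lists and 313, 207, 256 and 240 CPM in histone-high cells.

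The module level by class also differed between sets. Among cells low in both lists it was -0.10, -0.07, -0.00 and 0.15 in sets 1 to 4, and among histone-high cells 0.09, -0.07, 0.00 and 0.01. By this median set 1 thus lay lowest among the former and highest among the latter. By summed CPM set 3 was the lowest among cells low in both lists, with 2177 against 2220 in set 1. Set 1 was still the highest among histone-high cells, with 4318. The ratio of histone-high cells to cells low in both lists was accordingly highest in set 1 for 32 of 41 members (78.0%, against 25.8% of all genes), with set medians of 2.26, 1.68, 1.75 and 1.65. The ratio of top to bottom cells was highest in set 1 for 26 of 41 (63.4%, against 23.6%), with medians of 5.64, 3.85, 4.50 and 3.47. For mitotic-high cells against cells low in both lists, set 2 was instead highest for 19 of 41 (46.3%, against 24.9%). Set 1 was highest there for 14 (34.1%, against 27.8%), and the medians were 1.09, 1.15, 0.99 and 0.92. Replication UMIs per thinned cell had a 10th percentile of 11, a median of 25 and a 90th percentile of 47 in set 1, and 13, 28 and 44 in set 4. The coefficients of variation over cells were 0.502, 0.419, 0.475 and 0.417.

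Outside the list, the genes whose cell-to-cell pattern was most like the summed members, by the lowest correlation over the 4 sets, were KIAA0101, H2AFZ, HIST1H4C, PTMA, DEK, RANBP1, HMGB1, HMGB2, STMN1 and GGCT. KIAA0101, which encodes a PCNA-associated factor, had correlations of 0.60, 0.55, 0.58 and 0.52 and levels of 254, 284, 303 and 322 CPM. H2AFZ, a histone variant, had 0.52, 0.58, 0.56 and 0.48 at 3861 to 4923 CPM, a level at which counting noise is small. Of 69 further genes of the pathway (origin, fork, repair, histone chaperone and E2F genes), 50 were measured. In every set 34 of 50 were 1.5-fold or more higher in the top 20% of cells (5.6% of all genes) and 1 (2.56% of all genes), POLD4, a subunit of polymerase delta, had ratios of 0.8 or less, at 0.695, 0.664, 0.682 and 0.708. Against cells low in both lists, 15 of 50 were higher in histone-high cells (2.58% of all genes) and 6 of 50 in mitotic-high cells (2.98%) by the same limit. The exonuclease EXO1 (median ratio of top to bottom cells 20.5), the histone chaperone ASF1B (12.6), cyclin A2 (CCNA2, 10.6) and DTL (10.5) had the highest ratios. Between sets, 4 of 50 spanned 1.5-fold, where 17.2% of all genes did: HELLS, CDKN1A, ASF1A and TFDP1. HELLS, a chromatin remodeller, had 20.1, 28.7, 35.7 and 37.5 CPM, low in set 1 as CHAF1A was, and CDKN1A, a cyclin-dependent kinase inhibitor, had 58.7, 87.8, 56.6 and 48.6 CPM.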

How the data were processed

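The authors deposited UMI counts per gene and cell from 4 single-cell libraries, 1 per line. The builds hg19 and mm10 are named in the submitters' processing notes, as are the tools Cell Ranger 3.0.0 and Seurat 3.0, and their roles are not given in the sources used here. A log-scale table was not used. Sums per barcode suffix were scaled to CPM by the suffix's total UMIs, and 19 second entries of a symbol were left out. Levels are log2(CPM + 1) where a gene reached 10 CPM in some set. Cells were thinned to 10000 UMIs. In ratios a count of 0 was set to 3 UMIs, and the size rules took any lower count as 3. Intervals are exact (Poisson, conditional binomial, Clopper-Pearson). With 1 library per line no test across samples was run, and folds of fixed size stand in its place. Whether reads shared with pseudogene copies (of DUT or PCNA, for example) were counted is not given.

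Members and lists were chosen with earlier results of these data known. Members given with values were the 8 of highest CPM, the 10 of widest span, those departing from the module and the extremes of each ratio. Other members, among them CDT1, GMNN, CCNE2 and the single pairs, were picked after their values were seen. On simulated counts the 1.5-fold span rule called 67 of 67 genes simulated at a 2-fold difference, 0 of 67 at 1.25-fold and 0 of 6782 left equal. The between-cell rule called 6 of 7180 unchanged genes. Genes left equal or unchanged held counting error alone, with no spread between cells, cultures or libraries. These checks therefore give no error rate for the measured data. Alternatives covered the pseudocount, scaling, filter, thinning, fold, percentile and classes of cells. Python 3.11.15, numpy 2.4.6, scipy 1.17.1, pandas 2.3.3 and edgeR 4.0.16 (TMM factors) in R 4.3.3 were used.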

Additional observations from a re-analysis of the deposited data

How the results depend on the processing

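Members spanning 1.5-fold between sets numbered 3, and 4 with TMM scaling, but 0 with a pseudocount of 10 CPM or at 50 CPM or more (19 members). They numbered 8 of 39 in cells low in both lists and 9 of 48 in histone-high cells. Members counted in a class were those reaching 10 CPM in it, which differ from the 41. The share of all genes within a class is not given, so these class counts do not single out the members. Members spanning 2-fold went from 0 to 1 in cells low in both lists. Departing members went from 6 to 0 with a pseudocount of 10 CPM, at 50 CPM or more, and with a 1.5-fold limit. The class-wise values were chosen after seeing the data. The module level of set 2 changed sign in mitotic-high cells alone (0.0465 against -0.0792). Members higher in histone-high cells numbered 21, but 5 at 2-fold and 9 with classes cut at the 90th percentile. Members higher in mitotic-high cells numbered 5, but 3 when thinned to 5000 UMIs, 1 at 2-fold and 1 at the 90th percentile. The between-cell count of 40 stayed between 35 and 40 of 41 over its other alternatives, and was 47 of 48 with no filter on low genes.

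At the 90th percentile, cells low in both lists were 81.4%, 83.4%, 80.9% and 75.5% of sets 1 to 4, histone-high cells 8.04%, 8.83%, 9.77% and 12.4%, mitotic-high cells 9.93%, 7.37%, 8.60% and 11.1%, and cells high in both 0.615%, 0.450%, 0.748% and 1.03%. At that cut more cells fell into the class low in both lists, against which the ratios were taken. What part this had in the smaller member counts was not tested.

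The log2 gap between highest and lowest set was retaken for the 27 named members, giving 189 values. Gene filters, which cannot alter the gap, were left out. Of these values 112 stayed within the counting interval of the gap in all cells, 72 moved and 5 changed sign. That interval does not hold the larger counting error of the cell classes, which have fewer UMIs. Gaps near 0 in a class therefore do not settle a sign. In mitotic-high cells alone MCM6 was at -0.0325, RRM2 at -0.0763 and UNG at -0.138. MCM7 was at -0.00796 in histone-high cells and RRM1 at -0.00707 in cells low in both lists. The cause was not tested. No paired analysis was possible because there is a single library for every line and the sets carry no replicate number. With 1 library per line, culture, library and line cannot be told apart.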
